A study of Homo sapiens with 20 samples.

Results

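Enzymes that reduce or oxidise the keto and hydroxyl groups of steroids were followed through the differentiation of HepaRG, a human hepatoma cell line whose progenitors give rise in culture to hepatocyte-like and biliary-like cells. They were chosen by name and comprise the aldo-keto reductases AKR1C1, AKR1C2, AKR1C3, AKR1C4, AKR1D1 and AKR1B10, the steroid 5-alpha reductases SRD5A1 and SRD5A2, and the hydroxysteroid dehydrogenases HSD11B1 and HSD17B2. All probes whose accession maps to these symbols were taken, which gave 12 probes for 9 of the 10 genes, among 22069 genes tested. No probe was matched to AKR1C2, which is therefore not measured here.

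RNA was labelled with Cy3 and hybridised to 20 one-color Agilent arrays, 4 independent replicates for each of 5 conditions. Cells grew in a medium with serum, insulin and hydrocortisone, which is the steroid cortisol, and were collected on day 4 after seeding (D4), when they are progenitors, and on day 15 (D15). From day 15 they received either no dimethyl sulfoxide (D30 − DMSO) or 2% of it (D30 + DMSO) until day 30, and cells of the latter kind were kept for 4 more days without it (D34 ± DMSO). All conditions thus share 1 cell line, a tumour line, and the same hydrocortisone. The array measures RNA of the whole culture, so fewer cells of a type and less RNA per cell cannot be told apart.

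The reduction of a steroid with a double bond next to its keto group proceeds in steps. SRD5A1 and SRD5A2 or, with the opposite geometry, AKR1D1 first saturate the ring, and AKR1C enzymes then reduce the 3-keto group, which in liver clears androgens, progestins and glucocorticoids and also forms bile acids. AKR1C1 additionally inactivates progesterone at its side chain and AKR1C3 activates androgens and makes prostaglandins, whereas AKR1C4 is known as the liver-specific member. HSD11B1 regenerates cortisol from cortisone, HSD17B2 oxidises estradiol and testosterone to their weaker keto forms, and AKR1B10 reduces retinal and other carbonyls.

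The AKR1C genes lie next to each other on chromosome 10 (GRCh38.p14), AKR1C1 at 4963415 to 4983283, AKR1C3 at 5048781 to 5107686 and AKR1C4 at 5196837 to 5218949. Their promoters are shown because the probes of these genes moved together with DMSO, apart from 1 probe of AKR1C4. The RefSeq table of promoters holds windows of 300 bases for 8 of the 10 genes, and the AKR1C windows are printed from 100 bases before to 20 bases after the start. Capitals mark the letters of a CCAAT box (CCAAT on the opposite strand) and of a TATA box (TATAAA on either strand).
AKR1C1, plus strand, chr10:4963315-4963434: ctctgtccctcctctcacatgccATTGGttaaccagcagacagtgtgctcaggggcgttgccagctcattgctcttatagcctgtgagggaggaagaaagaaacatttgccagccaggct
AKR1C2, minus strand, chr10:5003838-5003957: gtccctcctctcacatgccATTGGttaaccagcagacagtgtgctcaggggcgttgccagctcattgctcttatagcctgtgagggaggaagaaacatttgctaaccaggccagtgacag
AKR1C3 promoter 1, plus strand, chr10:5048681-5048800: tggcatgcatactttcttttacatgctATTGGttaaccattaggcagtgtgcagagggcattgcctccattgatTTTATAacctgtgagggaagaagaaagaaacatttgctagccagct
AKR1C3 promoter 2, plus strand, chr10:5094314-5094433: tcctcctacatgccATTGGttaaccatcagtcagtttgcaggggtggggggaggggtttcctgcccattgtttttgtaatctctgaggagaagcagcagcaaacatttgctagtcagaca
AKR1C4, plus strand, chr10:5196737-5196856: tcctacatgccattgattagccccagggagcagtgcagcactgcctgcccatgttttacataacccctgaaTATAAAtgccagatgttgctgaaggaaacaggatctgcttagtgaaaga

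Over the aligned windows of 300 bases, gaps counted, the promoter of AKR1C1 was 93.5% identical to that of AKR1C2, 73.5% to promoter 1 of AKR1C3 and 60.9% to that of AKR1C4. The CCAAT letters stood 77 bases before the start of AKR1C1, 81 before that of AKR1C2 and 73 and 86 before the starts of AKR1C3, and they were not found in the AKR1C4 window. AKR1C4 instead held TATAAA from 29 bases before its start, and promoter 1 of AKR1C3 held the same letters on the opposite strand from 26 bases before. Of 35116 promoters of the same length, 34.6% held CCAAT and 11.5% TATAAA. The core letters of an antioxidant response element (TGACNNNGC), an AP-1 site (TGANTCA) and a short motif of the glucocorticoid receptor (TGTTCT), searched on both strands, were in 0 of 9 windows of the AKR1C genes, AKR1D1, HSD11B1, SRD5A1 and SRD5A2, against 13.3%, 7.71% and 14.8% of all promoters. A match, or none, describes the letters of these windows only.

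Signals were scaled to a common 75th percentile of 563 intensity units and transformed to log2, and differences were tested with limma over all genes. A gene was called where the Benjamini-Hochberg adjusted p was under 0.005 and the means were more than 2-fold apart. Standard errors (SE) are those of the limma fit with 4 arrays per condition, and "overlap" refers to the ranges of the 4 arrays. Pearson's r of replicate arrays over all genes was 0.955 to 0.992, and between 61.1% and 74.2% of the spots of an array were well above background. The arrays lie on 4 slides, and slide 4, scanned in a second session, holds replicate 4 of every condition and replicate 3 of D15 and of D30 + DMSO. As to the cell types, the 7 hepatocyte markers listed were well above background on all arrays from D15 on. At D4, 6 of these 7 were so on all 4 arrays, and HNF4A on none. Of 6 biliary and progenitor markers, 4 were well above background on all 4 arrays at D4 and 5 in each later condition. EPCAM, the remaining one, was so on no array of any condition. Of 10 mesenchymal, endothelial and leukocyte markers, 7 were well above background on all 4 arrays of each condition.

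Over the 5 conditions, the moderated F-test of limma (Bonferroni-adjusted p under 0.001, means over 3-fold apart) called HSD11B1, AKR1D1, SRD5A2 and HSD17B2, which are 4 of 9 genes against 5.36% of all genes. Their condition means ranged over 67.9-fold for AKR1D1, 29.7-fold for HSD11B1, 23.2-fold for SRD5A2 and 5.14-fold for HSD17B2. At D4, AKR1D1 had 0 of 4 arrays well above background and signals set to at least 1, and SRD5A2 had 2 of 4. The sizes of these 2 ranges thus depend on dim signals. AKR1C1, AKR1C3, AKR1C4, AKR1B10 and SRD5A1 did not pass, with ranges between 2.04-fold for SRD5A1 and 3.57-fold for AKR1C4. The signals of all 12 probes are plotted by array.

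**Figure D1:**
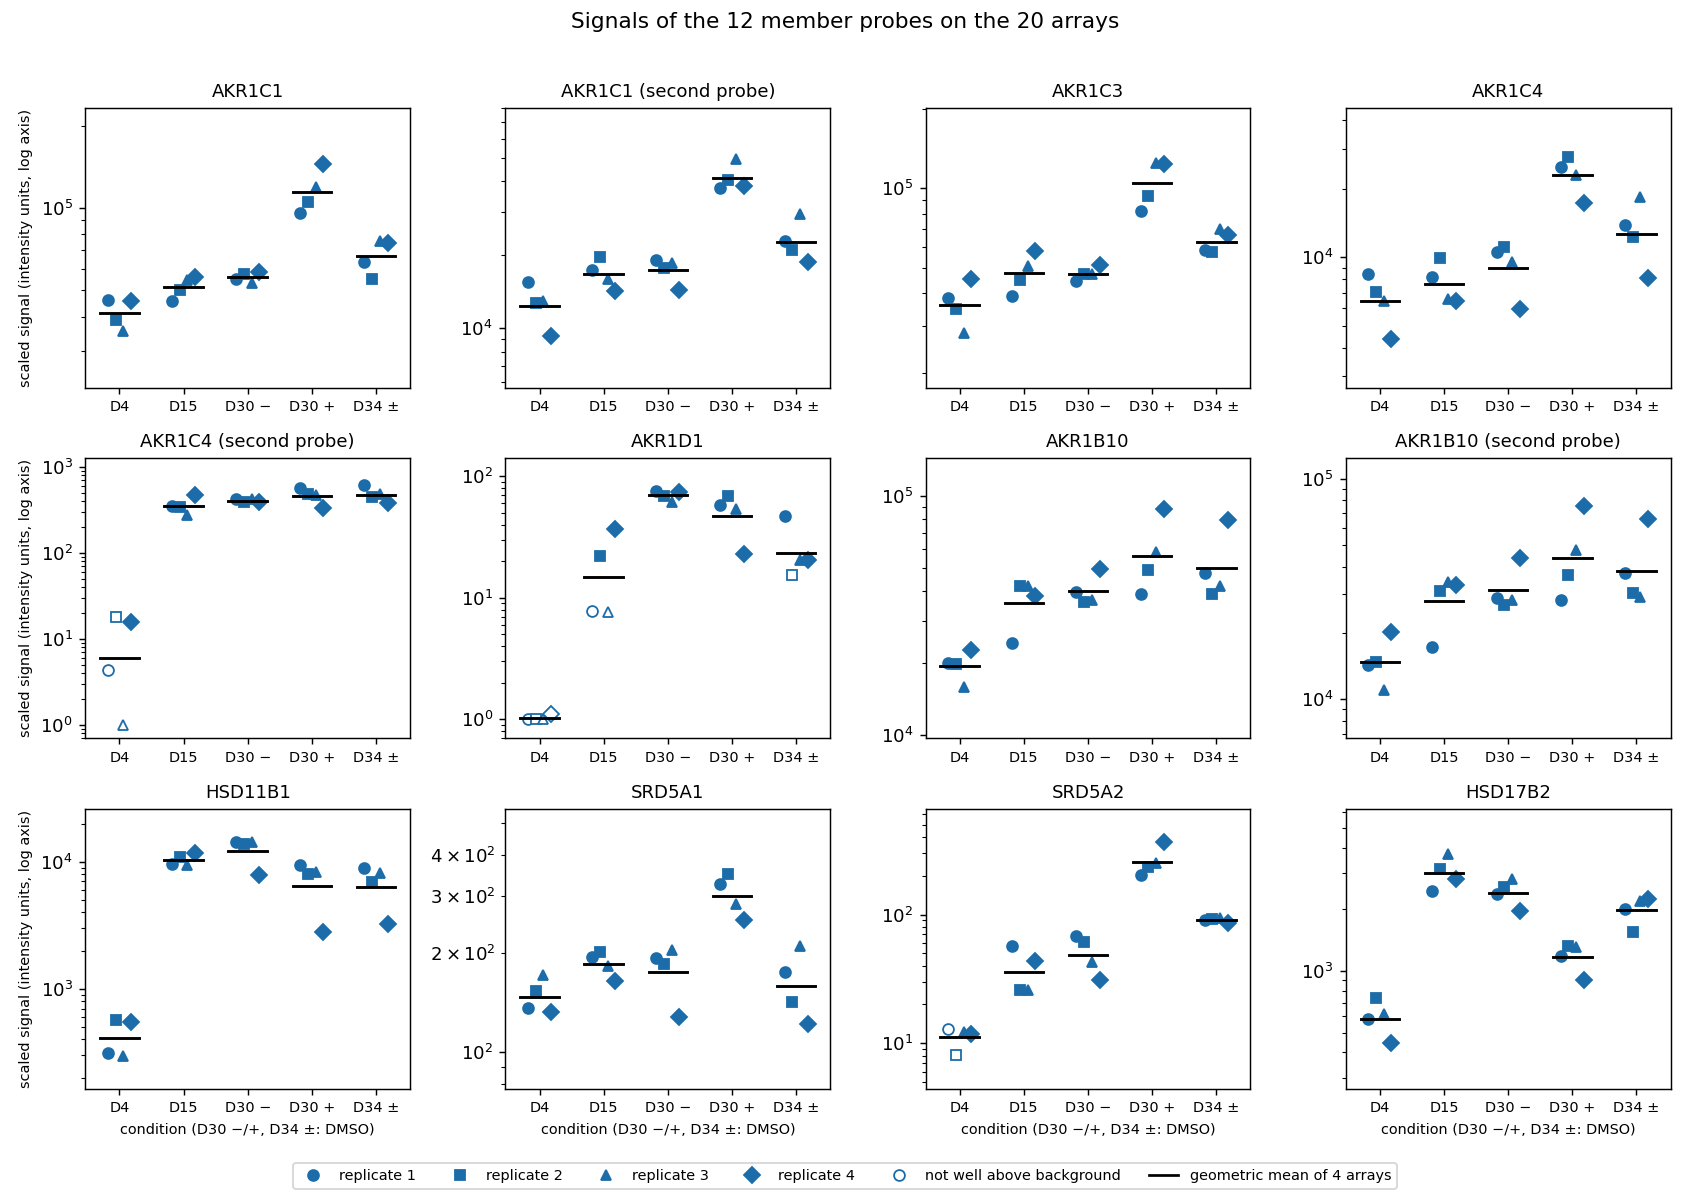
Scaled signal (intensity units, log axis, values under 1 drawn at 1) of each probe on the 4 arrays of each condition, with marker shapes for the replicate number, open symbols for arrays not well above background and a bar for the geometric mean. The D30 + DMSO arrays of AKR1C1, between 95600 and 145000, lie above those of every other condition, whereas the second probe of AKR1C4 lies between 280 and 614 in every condition after D4.

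Between the progenitors and D15, HSD11B1, AKR1D1, SRD5A2 and HSD17B2 rose, 4 of 9 genes tested, against 5.78% of all genes called higher. Of the 9, 0 fell, against 3.67% of all genes called lower, and 9.45% of all genes were called in either direction. With the second of its 2 probes standing for AKR1C4, 5 of 9 rose. The median log2 change of the 9 genes was 0.88, and that of all genes was 0.04. Without overlap, 5 of 9 genes were higher at D15, the fifth being AKR1B10, against 12.8% of all genes. Over the same step, all 7 hepatocyte markers tested rose, led by the apolipoprotein gene APOA1 (log2 5.15, SE 0.37, adjusted p = 8.59e-09), their summed signal going from between 82600 and 171000 at D4 to between 707000 and 1050000 at D15, and their part in these results was not tested.

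HSD11B1 (NM_181755), the cortisol-regenerating reductase, had scaled signals of 315, 564, 298 and 545 at D4 and of 9550, 10900, 9440 and 11700 at D15. It rose 25.2-fold, or 4.65 on the log2 scale (SE 0.37, limma adjusted p = 3.06e-08), and the arrays of D15 lay far above those of D4. HSD17B2 (NM_002153), measured by 10 spots of 1 probe, had 581, 736, 618 and 443 at D4 and 2470, 3140, 3730 and 2820 at D15. This oxidase of estradiol and testosterone rose 5.14-fold (log2 2.36, SE 0.18, adjusted p = 2.38e-08), again without overlap.

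AKR1D1 (NM_005989), the 5-beta reductase that also acts in bile acid synthesis, had 0 of 4 arrays well above background at D4. Its signals there were -3.97, -8.66, 0.908 and 1.11, and at D15 they were 7.81, 22.3, 7.61 and 37.0, of which those of replicates 2 and 4 were well above background. Measured against the lowest signals well above background at D4, the rise was at least 1.15-fold, a bound that was not tested. The call rests on the limma change of 3.86 on the log2 scale (SE 0.45, adjusted p = 2.78e-06), with log2 means of -9.10 at D4 and -5.24 at D15. Its size depends on the D4 signals, which were set to at least 1. With signals set to at least 10 the change was 0.76 on the log2 scale (adjusted p = 0.209) and after the normexp background correction 0.59 (adjusted p = 0.00986), and the call was lost in both.

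SRD5A2 (NM_000348), a 5-alpha reductase, had 12.9, 8.03, 12.3 and 11.8 at D4, with 2 of 4 arrays well above background, and 57.4, 25.8, 25.9 and 43.6 at D15. It rose 3.24-fold (log2 1.70, SE 0.28, adjusted p = 0.000133), and its signals stayed low at both times. After the normexp correction the change was 0.56 (adjusted p = 0.0211), and the call was lost. SRD5A1 (NM_001047), the other 5-alpha reductase, had 136, 153, 172 and 132 at D4 and 195, 202, 183 and 165 at D15, a log2 change of 0.33 (SE 0.18, adjusted p = 0.217), with overlap. The change of SRD5A2 was 1.36 on the log2 scale above that of SRD5A1 (exact permutation test of the within-array difference, two-sided, 4 arrays against 4, p = 0.0286, adjusted p = 0.171 over 12 tests of paralogs), and 0.0286 is the smallest p this design can give.

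The AKR1C genes were already well above background on every D4 array with the probes that stand for them. AKR1C1 (NM_001353) had 45900, 38800, 35300 and 45500 at D4 and 45500, 50100, 54600 and 55700 at D15, a log2 change of 0.32 (SE 0.14, adjusted p = 0.132). AKR1C3 (NM_003739) changed by 0.40 (SE 0.17, adjusted p = 0.0998) and AKR1C4 (NM_001818) by 0.26 (SE 0.26, adjusted p = 0.581), and the arrays of D4 and D15 overlapped for all 3 genes. The 95% confidence intervals reach from 0.01 to 0.62 for AKR1C1 and from -0.29 to 0.81 for AKR1C4.

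The 2 probes of AKR1C4 gave different values, unlike those of AKR1C1 and AKR1B10, whose changes differed by at most 0.22 on the log2 scale (exact permutation tests, 4 arrays against 4, p between 0.314 and 0.943). Its second probe (A_23_P149926, 2 spots) had 4.38, 18.1, 0.328 and 15.7 at D4, well above background on 1 of 4 arrays, and 350, 338, 280 and 471 at D15. This is a log2 rise of 5.89 (SE 0.59, adjusted p = 5.02e-07 over all probes), of 4.77 with signals set to at least 10 and of 2.67 after the normexp background correction, all called. The size of this rise depends on how the dim D4 signals are set. On DMSO addition, where all arrays were well above background, the change of the second probe minus that of the first (A_33_P3272291, 1 spot) was -1.17 on the log2 scale (exact permutation test, two-sided, 4 arrays against 4, p = 0.0286, adjusted p = 0.0857 over 9 tests of probe pairs).

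Across the 20 arrays, the profile of the first AKR1C4 probe resembled the second probe of AKR1C1 (Pearson's r = 0.961), and its own second probe less (r = 0.493). SLC39A11, which is not an AKR1C gene, was the gene most like both the first AKR1C4 probe (r = 0.967) and the second AKR1C1 probe (r = 0.966). Among the genes most like the second AKR1C4 probe were TDO2 (r = 0.991), which degrades tryptophan, and C6 (r = 0.989), a complement component. AKR1C1, by its first probe, and AKR1C3 resembled each other most of all genes (r = 0.979). The second AKR1C1 probe had r = 0.862 with AKR1C3 and r = 0.893 with the first AKR1C1 probe. These are descriptions over arrays that share their conditions. AKR1C genes are close paralogs, and a probe that binds the RNA of several of them would not tell them apart, so that a value given for AKR1C1, AKR1C3 or the first AKR1C4 probe may hold signal of another AKR1C gene, which was not tested.

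AKR1B10 (NM_020299) had 19900, 19800, 15800 and 22600 at D4 and 24100, 42000, 41900 and 37900 at D15. All D15 arrays lay above those of D4, and the log2 change of 0.88 (SE 0.26, adjusted p = 0.0164) was not called. Its second probe overlapped between these conditions, with a change of 0.92 (SE 0.32, adjusted p = 0.0410). The genes most like it were its paralogs AKR1B15 (r = 0.961) and AKR1B1 (r = 0.950), with ARHGEF37 between them (r = 0.958), and paralogs may share its signal.

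From D15 to D30 − DMSO, limma called 0 of 9 genes, against 0.00453% of all genes, that is 1 gene. An unadjusted p under 0.05 was found for 658 genes, which are 2.98% of all genes, and AKR1D1 was the only one of the 9. An adjusted p under 0.05 was found for 10 genes. AKR1D1 had 75.8, 68.7, 60.9 and 74.0 at D30 − DMSO, above the 4 arrays of D15, with a log2 change of 2.22 (SE 0.45, adjusted p = 0.138). All 4 arrays were then well above background, against 2 of 4 at D15. Over the alternatives named below, this log2 change of AKR1D1 lay between 0.73 and 2.63. The changes of the other 8 genes lay between -0.32 for HSD17B2 and 0.43 for SRD5A2. Without overlap, 1 of 9 genes was higher and 0 lower, against 1.22% and 1.07% of all genes.

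With DMSO addition, AKR1C1, AKR1C3, AKR1C4 and SRD5A2 rose in D30 + DMSO against D30 − DMSO, 4 of 9 genes against 1.72% of all genes called higher, and 3 of 9 with the second probe of AKR1C4 in place of the first. HSD17B2 fell, 1 of 9 genes against 4.12% of all genes called lower, and 5.85% were called in either direction. The median log2 change of the 9 genes was 0.78 and that of all genes was 0.04. Without overlap, 5 of 9 genes were higher and 1 lower with DMSO, against 12.6% and 12.5% of all genes. None of the 7 hepatocyte markers tested was called, at a median log2 change of 0.55 and a summed signal between 1020000 and 1720000 against 902000 and 957000, and their part was not tested.

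SRD5A2 had 68.1, 61.7, 42.4 and 31.0 at D30 − DMSO and 204, 234, 252 and 367 at D30 + DMSO. It rose 5.32-fold (log2 2.41, SE 0.28, adjusted p = 5.98e-06), and the lowest array with DMSO was above the highest without it. SRD5A1 had 193, 185, 205 and 128 without and 325, 350, 283 and 252 with DMSO, likewise without overlap, a log2 change of 0.78 (SE 0.18, adjusted p = 0.00419) that is 1.72-fold and under the 2-fold limit. The change of SRD5A2 exceeded it by 1.63 on the log2 scale (exact permutation test, two-sided, 4 arrays against 4, p = 0.0286, adjusted p = 0.171). CYP2E1, an ethanol-oxidising cytochrome P450, was the gene whose profile over the 20 arrays was most like that of SRD5A2 (r = 0.981), followed by APOA4 (r = 0.972), an apolipoprotein.

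AKR1C1 had 54800, 57400, 53100 and 58400 at D30 − DMSO and 95600, 105000, 119000 and 145000 at D30 + DMSO. The arrays did not overlap, and AKR1C1 rose 2.06-fold (log2 1.04, SE 0.14, adjusted p = 4.57e-05), just past the 2-fold limit. Its second probe rose 2.39-fold (log2 1.26, SE 0.17, adjusted p = 4.27e-05). Quantile normalization gave 0.89 for the first probe, the deposited matrix centred on the 75th percentile 0.90 and the slide as a block 0.98, each under the limit, and so did the fit without replicate 4 of D30 + DMSO, at 0.93, and the fit without slide 4, at 0.86.

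AKR1C3 had 44400, 47100, 47300 and 51200 without and 82000, 93200, 125000 and 123000 with DMSO. It rose 2.19-fold (log2 1.13, SE 0.17, adjusted p = 8.22e-05), and had 0.98 after quantile normalization, 1.00 in the centred matrix and 0.92 without the arrays of slide 4, the call being lost in all of them. In the matrix without further centring AKR1C1 rose by 1.03 (adjusted p = 0.000189) and AKR1C3 by 1.12 (adjusted p = 0.000357), both called. The first probe of AKR1C4 had 10500, 11100, 9510 and 5910 without and 24900, 27600, 23000 and 17300 with DMSO, and it rose 2.54-fold (log2 1.35, SE 0.26, adjusted p = 0.00112). This call was lost without replicate 4 of D30 − DMSO (adjusted p = 0.00513) and without replicate 2 of D30 + DMSO (adjusted p = 0.00530). The second probe of AKR1C4 had 421, 391, 421 and 391 without and 569, 490, 475 and 329 with DMSO, which overlap, at a log2 change of 0.17 (SE 0.59, adjusted p = 0.909).

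The changes of AKR1C1, AKR1C3 and the first AKR1C4 probe differed from each other by at most 0.31 on the log2 scale. Exact permutation tests of these 3 pairs gave p between 0.286 and 0.600 (4 arrays against 4, two-sided), and with 4 arrays a smaller difference than their spread would not be seen. AKR1B10 had 39700, 35900, 36700 and 49500 without and 39000, 48800, 58100 and 88000 with DMSO, a log2 change of 0.48 (SE 0.26, adjusted p = 0.240). Its highest signals at D30 − DMSO, D30 + DMSO and D34 ± DMSO were all those of replicate 4.

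HSD17B2 had 2370, 2570, 2810 and 1960 at D30 − DMSO and 1180, 1320, 1310 and 906 at D30 + DMSO. It fell 2.06-fold (log2 -1.05, SE 0.18, adjusted p = 0.000490), and every array with DMSO lay below every array without it. The call was lost without replicate 3 of D30 − DMSO, at a log2 change of -0.97, and without replicate 4 of D30 + DMSO, at -0.93. HSD11B1, the other dehydrogenase, had 14400, 13900, 14200 and 7820 without and 9360, 8060, 8270 and 2790 with DMSO. Its log2 change was -0.92 (SE 0.37, adjusted p = 0.101) and replicate 4 was the lowest in both conditions. With all arrays numbered 4 left out, the change was -0.73 (adjusted p = 0.0236), under the 2-fold limit.

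AKR1D1 had 58.0, 69.3, 53.3 and 23.0 at D30 + DMSO, which overlaps D30 − DMSO, at a log2 change of -0.56 (SE 0.45, adjusted p = 0.478). Within slides 3 and 4, the 2 slides that hold both conditions, the changes of AKR1C1 lay between 0.87 and 1.17, those of SRD5A2 between 1.68 and 3.29 and those of HSD17B2 between -0.93 and -0.85. The methods' t-test on the same values called 0 of the 9 genes at the same thresholds, with adjusted p between 0.00515 for AKR1C1 and 0.0171 for AKR1C4 among the 5 genes called by limma. On removal its adjusted p for SRD5A2 was 0.00541, and from D4 to D15 it was 0.00711 for AKR1D1 and 0.0182 for SRD5A2.

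**Figure D2:**
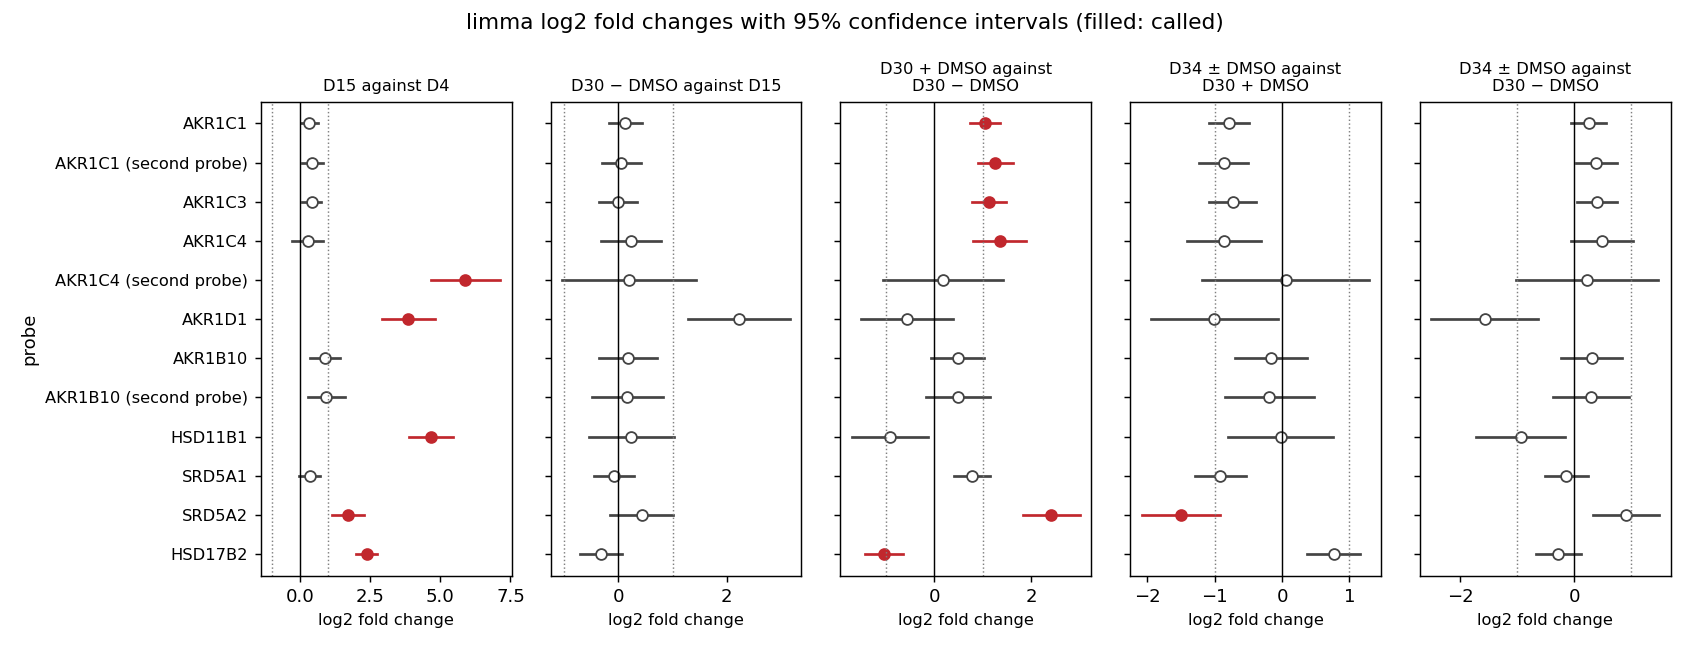
limma log2 fold changes (points) with 95% confidence intervals (lines) of the 12 probes in each of the 5 comparisons, filled and red where called, with dotted lines at a 2-fold change and a separate scale per panel. For DMSO addition, 5 probes are called higher, AKR1C1 (both probes), AKR1C3, AKR1C4 (first probe) and SRD5A2, and HSD17B2 is called lower.

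After DMSO removal for 4 days SRD5A2 was lower, whereas the other 8 genes were not called. No array holds cells kept in DMSO for these 4 days, so removal and the added time in culture cannot be told apart. The comparison with D30 + DMSO called 1 of 9 genes lower, against 2.1% of all genes, and 0 of 9 higher, against 4.88% of all genes, 6.99% being called in either direction. It shares the D30 + DMSO arrays with the comparison for addition, so that the values of both stand side by side and are not independent. The median log2 change of the 9 genes was -0.79 and that of all genes -0.07. Without overlap, 1 of 9 genes was higher and 4 were lower at D34 ± DMSO, against 11.3% and 12.6% of all genes. All 8 proliferation markers tested rose over the same 4 days, led by CDK1 (log2 3.85, SE 0.27, adjusted p = 2.19e-08), their summed signal going from between 2560 and 4560 to between 13800 and 26800, and their part in these results was not tested.

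SRD5A2 had 90.7, 93.0, 94.8 and 85.8 at D34 ± DMSO. It fell 2.83-fold (log2 -1.50, SE 0.28, adjusted p = 0.000574), below every array with DMSO but above every array of D30 − DMSO. Without the arrays numbered 4 the log2 change was -1.30 (adjusted p = 0.00576), and without the arrays of slide 4 it was -1.24 (adjusted p = 0.0236), and in both cases the call was lost. SRD5A1 had 175, 142, 210 and 122, without overlap with D30 + DMSO, a log2 change of -0.92 (SE 0.18, adjusted p = 0.000918) that is 1.89-fold. It passed the 2-fold limit with the scan session as a block, at -1.01, without replicate 4 of D30 + DMSO, at -1.002, and without replicate 3 of D34 ± DMSO, at -1.05.

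AKR1C1 had 63500, 55100, 75400 and 74700 at D34 ± DMSO, all below the arrays of D30 + DMSO. Its log2 change was -0.79 (SE 0.14, adjusted p = 0.000546), which is 1.73-fold and under the 2-fold limit. AKR1C3 had 58200, 57200, 70000 and 66400, also without overlap, at -0.73 (SE 0.17, adjusted p = 0.00352). The first AKR1C4 probe had 13900, 12300, 18400 and 8110, of which replicate 3 lies above the lowest array with DMSO, at -0.86 (SE 0.26, adjusted p = 0.0242), and the second probe changed by 0.05 (SE 0.59, adjusted p = 0.968).

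HSD17B2 had 2020, 1550, 2190 and 2240, above the arrays with DMSO, at a log2 change of 0.77 (SE 0.18, adjusted p = 0.00533). HSD11B1 had 8920, 6980, 8160 and 3220 and a change of -0.02 (SE 0.37, adjusted p = 0.980, 95% confidence interval -0.80 to 0.76), so that its signals stayed where they were with DMSO, within this interval. AKR1D1 had 47.1, 15.3, 20.6 and 20.4, with 3 of 4 arrays well above background, at -1.01 (SE 0.45, adjusted p = 0.127). AKR1B10 had 47400, 38900, 41800 and 79200, at -0.17 (SE 0.26, adjusted p = 0.747).

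Against cells never exposed to DMSO, D34 ± DMSO called 0 of 9 genes, against 1.52% of all genes called in either direction, 1.31% higher and 0.208% lower. These cells were collected on day 30, so past exposure and time in culture cannot be told apart. An unadjusted p under 0.05 was found for AKR1C3, AKR1D1, HSD11B1 and SRD5A2, 4 of the 9, against 15.3% of all genes. SRD5A2 was higher by 0.91 (SE 0.28, adjusted p = 0.0726) and AKR1C3 by 0.40 (SE 0.17, adjusted p = 0.231), and AKR1D1 had a change of -1.57 (SE 0.45, adjusted p = 0.0527), all without overlap, whereas HSD11B1 overlapped, at -0.94 (SE 0.37, adjusted p = 0.197). Without overlap, 2 of 9 genes were thus higher and 1 lower, against 5.29% and 6.68% of all genes. Ordered by level, D30 + DMSO stood first and D34 ± DMSO second for AKR1C1, AKR1C3, the first AKR1C4 probe, SRD5A2 and AKR1B10. In this order the step to D34 ± DMSO was free of overlap for AKR1C1, AKR1C3 and SRD5A2, and D34 ± DMSO overlapped the next condition for all of them except SRD5A2. HSD17B2 had its highest mean at D15, HSD11B1 and AKR1D1 at D30 − DMSO.

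**Figure D3:**
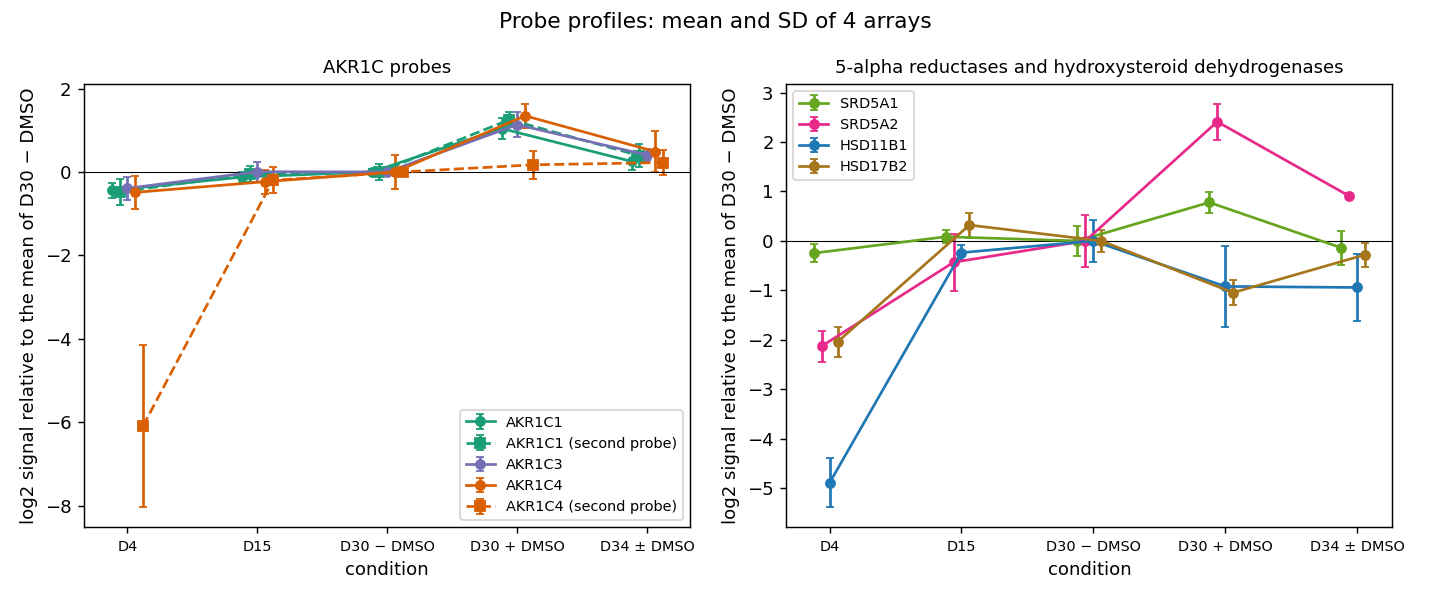
Mean log2 signal relative to the mean of D30 − DMSO (points, with the SD of 4 arrays) in the 5 conditions, for the AKR1C probes on the left and for SRD5A1, SRD5A2, HSD11B1 and HSD17B2 on the right. On the left, 4 probes share a maximum at D30 + DMSO and the second AKR1C4 probe is flat after D15; on the right, SRD5A2 is higher and HSD17B2 lower at D30 + DMSO.

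Other genes around these enzymes were counted from lists. At D15, 10 of 19 other hydroxysteroid dehydrogenases and steroid reductases rose and 0 fell, led by HSD17B6 (log2 5.56, SE 0.37, adjusted p = 4.06e-09), which oxidises androgens at carbon 3. Of 8 enzymes of steroid conjugation and deconjugation 7 rose, all of them conjugating enzymes, led by the glucuronosyltransferase UGT2B4 (log2 5.92, SE 0.38, adjusted p = 2.83e-09). Of 12 bile acid synthesis genes 7 rose, led by the sterol hydroxylase CYP8B1 (log2 6.86, SE 0.52, adjusted p = 1.51e-08), which was well above background on 1 of 4 arrays at D4. The eighth gene of conjugation and deconjugation, the steroid sulfatase STS, which removes sulfate, changed by 0.11 (SE 0.42, adjusted p = 0.908) and is named outside the rule. The median log2 changes of the 3 lists were 1.09, 4.26 and 1.48, against 0.04 over all genes. Of all genes, 5.78% were called higher and 3.67% lower at D15.

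HSD11B2, which inactivates cortisol and so runs opposite to HSD11B1, rose by 2.60 (SE 0.23, adjusted p = 9.45e-08) at D15, and H6PD, which supplies HSD11B1 with its cofactor, rose by 1.65 (SE 0.34, adjusted p = 0.00122). This pair was chosen after its values were seen. For the counts that follow, 5.78% of all genes were called higher at D15. In either direction, 5.85% were called on addition and 6.99% on removal. Of 8 glucocorticoid receptor targets tested 1 rose at D15, the tyrosine aminotransferase gene TAT (log2 2.54, SE 0.40, adjusted p = 0.000101), and 0 were called on DMSO addition or removal. Their median log2 change was 0.29 on addition and -0.76 on removal, against 0.04 and -0.07 over all genes, and on removal limma gave 5 of them, DUSP1, KLF9, TSC22D3, PER1 and TAT, an adjusted p between 6.05e-05 and 0.00637, TAT at a change of -1.63 and the others under 2-fold; these were named after their values were seen. Of 5 other aldo-keto reductases 1 rose at D15, AKR7A3 (log2 1.93, SE 0.18, adjusted p = 1.81e-07), an aflatoxin aldehyde reductase. Of 4 steroid synthesis genes 1 rose, the steroid 21-hydroxylase CYP21A2 (log2 1.81, SE 0.34, adjusted p = 0.000566).

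On DMSO addition, 2 of the 19 dehydrogenases and reductases rose and 1 fell, against 1.72% of all genes called higher and 4.12% called lower. RDH5, a retinol dehydrogenase, rose by 1.86 (SE 0.20, adjusted p = 3.03e-06) and fell by 2.15 on removal (SE 0.20, adjusted p = 4.13e-07). HSD3B1, which makes the keto steroids that 5-alpha reductases act on, fell by 4.13 (SE 0.27, adjusted p = 1.86e-08) and rose by 3.71 on removal (SE 0.27, adjusted p = 3.24e-08), with 1 of 4 arrays well above background at D30 + DMSO. The estrogen sulfotransferase SULT1E1, on no array well above background at D30 + DMSO, fell at least 10.4-fold (log2 means -1.96 and -7.64). It was at least 13.7-fold higher after removal (log2 means -7.64 and -1.56). These bounds were not tested, and the limma changes behind the calls were -5.68 (SE 0.61, adjusted p = 2.87e-06) and 6.075 (SE 0.61, adjusted p = 8.64e-07).

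The aromatase gene CYP19A1 rose by 2.45 on removal (SE 0.36, adjusted p = 6.09e-05), with 1 of 4 arrays well above background at D30 + DMSO. Among 12 bile acid genes, 2 rose on addition and 3 fell on removal, against 1.72% of all genes called higher on addition and 2.1% called lower on removal. The bile acid ligase SLC27A5 was called in both, at 1.86 (SE 0.29, adjusted p = 0.000161) and -1.99 (SE 0.29, adjusted p = 6.49e-05). Of 13 targets of NRF2, the factor known to regulate AKR1C1 and AKR1B10, 1 rose on addition and fell on removal, the glutathione synthesis enzyme GCLC (log2 1.19, SE 0.24, adjusted p = 0.00152, and -1.34, SE 0.24, adjusted p = 0.000421). The median of the 13 was 0.41 on addition and -0.01 on removal, against 0.04 and -0.07 over all genes.

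Of 5 biliary and progenitor markers tested, SPP1 and SOX9 were called in some comparison and KRT7, KRT19 and CD24 in none of the 5. The shares of all genes called in either direction were 9.45% at D15, 5.85% on addition and 6.99% on removal. SPP1, an osteopontin gene of biliary cells, rose by 1.70 at D15 (SE 0.24, adjusted p = 2.5e-05), fell by 1.78 on addition (SE 0.24, adjusted p = 3.04e-05) and rose by 2.22 on removal (SE 0.24, adjusted p = 1.8e-06). SOX9, a biliary transcription factor, rose by 1.31 on addition (SE 0.24, adjusted p = 0.000753) and fell by 2.09 on removal (SE 0.24, adjusted p = 4.87e-06). The summed signal of the biliary and progenitor markers lay between 90700 and 94800 at D30 − DMSO and between 66700 and 96800 at D30 + DMSO. Their part in the changes of SRD5A2, the AKR1C genes and HSD17B2 was not tested.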

How the data were processed

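The authors deposited the Feature Extraction output of each array, in which the processed signal of a spot is an intensity after background subtraction, without scaling between arrays. They also deposited a matrix of log2 values, which equal log2 of the scaled processed signal but for a constant per probe and array shifts up to 0.113, as tested on the 21542 probes that every array measured above background. The processing notes name Feature Extraction 10.7.3.1 and the headers 10.7.1.1.

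Spots of one probe were averaged without those marked as outliers, scaled to the 75th percentile of 58717 spots, set to at least 1 and taken to log2. Of 42405 probes, 26351 were well above background on the 4 arrays of some condition and were kept. A gene was represented by its probe of highest mean. Probes were named through RefSeq accessions, with a symbol for 24826 probes. Tests used R 4.3.3, limma 3.58.1 and version 1.17.8 of data.table, with 5 condition means, promoters were aligned with Biopython 1.88, and the steps were tested on simulated data. The thresholds are those of the methods, with limma in place of the t-test and the analysis of variance.

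The genes, lists and tests were chosen with earlier results of these data known. All genes of the set are named with every probe. From each list, the gene with the largest rise and fall among those called is named, with exceptions stated, and some genes named by these rules are left out of the text. For each probe, the 3 most correlated genes were found. The paralog tests cover 3 of 6 AKR1C pairs, since AKR1C2 has no probe matched here. Same-numbered arrays did not correlate in every pair, so their numbers were not used as a pairing. Alternatives were quantile normalization, normexp on the median spot intensity with an offset of 50, the deposited matrix, other filters, every probe tested, a floor of 10, blocks, only the arrays compared, the methods' tests, an adjusted p below 0.05 and leaving out each array. The matrix without further centring, the fits without slide 4 or arrays numbered 4, the counts with the other AKR1C4 probe and the tests of probe pairs were added after seeing the data. The number of arrays limits the precision.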

Additional observations from a re-analysis of the deposited data

Results flagged for a closer look

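In 4 of 59 groups of 4 arrays, 1 array lay far from the other 3 (the gap to the nearest other array over the range, given below, was above the critical value of Dixon's test, which chance passes in about 5% of groups). HSD11B1 replicate 4 was low at D30 − DMSO, at 7820 against 13900 to 14400 (0.948), and at D30 + DMSO, at 2790 against 8060 to 9360 (0.877). The second probe of AKR1B10 was high in replicate 4 of D30 − DMSO, at 43600 against 26800 to 28800 (0.851), and low in replicate 1 of D15, at 17300 against 31000 to 34000 (0.866). All arrays numbered 4 lie on slide 4, as does replicate 3 of D30 + DMSO, where HSD11B1 had 8270.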

How the results depend on the processing

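The number of the 9 genes called on DMSO addition, 5, was 3 with quantile normalization, the deposited matrix centred on the 75th percentile or without the arrays of slide 4, 0 with the methods' t-test, and between 3 and 5 without any 1 array. From D4 to D15, 4 became 2 with normexp, with only probes above background on all arrays or with the t-test. That filter leaves AKR1D1 and SRD5A2 out of testing, so its lower counts here and below come from their exclusion, not from a test. On removal, 1 became 0 with that filter, with the t-test, without slide 4 or without the arrays numbered 4, 3 with the scan session as a block, and 1 to 2 without any 1 array. The F-test count of 4 became 2 with that filter, 1 without slide 4, 3 with normexp, a floor of 10 or without arrays numbered 4, and 5 with the slide or scan session as a block. Apart from this exclusion by the filter, the causes were not tested. The replicate block gave 4, 0, 5, 1 and 0 in the 5 comparisons and 4 by the F-test, and so changed no count of the 9 genes. Over all genes it gave 1510 calls on addition, and the slide as a block 1581, against 1290. With condition means subtracted, same-numbered arrays of different conditions had a median r of 0.258, and other-numbered ones -0.159. The median was 0.381 for arrays of the same slide and -0.168 for other slides. Of 20 arrays, 16 correlated best with an array of their own number. Over all genes, normexp gave 1377, 655 and 852 calls against 2086, 1290 and 1542 from D4 to D15, on addition and on removal.

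Signs turned only for uncalled changes near 0. AKR1C3 from D15 to D30 − DMSO was 0.021 with quantile normalization, 0.028 in the centred and 0.004 in the uncentred matrix, 0.070 and 0.076 with slide and scan session as blocks, 0.14 without slide 4, 0.049 without arrays numbered 4, and -0.101 to 0.086 without any 1 array. HSD11B1 on removal was 0.055 with quantile normalization, 0.027 with normexp, 0.004 and 0.001 in the matrix, and -0.426 to 0.305 without any 1 array. From D15 to D30 − DMSO, AKR1B10 was -0.016 to 0.251 and SRD5A1 -0.160 to 0.065 without any 1 array, SRD5A1 being 0.008 without arrays numbered 4. AKR1B10 on removal was -0.391 to 0.051. The low signals of AKR1D1 and SRD5A2 limit the size of their changes.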
